A study of Mus musculus with 16 samples.

Results

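Loss of CD45 was compared on the background of an activated FLT3 receptor, in osteoclast cultures. The comparison used 8 of the 16 libraries of the series: 4 with the label FLT3 ITD Ptprc KO, called the double mutant below, and 4 with the label FLT3 ITD. They were chosen by genotype label alone, and all 12093 genes with enough counts, of 21936 in the deposited table, were described. FLT3 ITD cultures carried Flt3 with an internal tandem duplication, as a knock-in, and intact Ptprc. Double-mutant cultures carried the same knock-in together with a knockout of Ptprc, so both groups shared the Flt3 allele, the C57BL/6J strain and the culture conditions. The other 8 libraries, WT and Ptprc KO, served to estimate the spread between replicates and to ask whether the difference depended on Flt3. CD11b-positive bone marrow cells had received M-CSF for 3 days (50 ng/ml) and then M-CSF with RANKL (20 ng/ml), and RNA was taken once mature osteoclasts first appeared, between days 3 and 5. The sources used here do not give the day of each culture, the structure of the knockout allele or the animal behind each replicate, and a p-value here reflects only how much these cultures varied, which may be technical.

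Osteoclasts are the large multinucleated cells that dissolve bone. They form when macrophage precursors exposed to M-CSF and RANKL leave the cell cycle, fuse, and build a sealed compartment into which they pump acid and secrete proteases. CD45 is a receptor tyrosine phosphatase of blood cells, best known for removing the inhibitory phosphate from Src-family kinases, and it can also act on JAK kinases. FLT3 is a receptor tyrosine kinase of blood progenitors, and its internal tandem duplication, common in acute myeloid leukaemia, signals without ligand through STAT5 and the ERK pathway.

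The 8 libraries held 25011720 to 32355800 counts each, and Y-linked genes were detected in all of them. Several libraries stood apart from their groups. FLT3 ITD replicates 1 and 3 were much closer to each other (chi-square 2.76 per gene) than the next closest pair of the series (13). The sources used here do not say whether they came from 1 culture, in which case the FLT3 ITD values below rest on 3 cultures and not 4. With their counts summed into 1 library, edgeR still called 0 genes higher and only Ptprc lower (log2 fold change -2.61, adjusted p = 0.00125). FLT3 ITD replicate 2 had values that fell with gene length (Spearman rho of -0.46 over genes, a description because genes are not replicates). The only other negative value was that of FLT3 ITD replicate 4 (-0.181), and the remaining libraries had rho from 0.0352 to 0.181. Both libraries with a negative trend thus belonged to the FLT3 ITD group. FLT3 ITD replicate 4 had low osteoclast genes and high macrophage genes, and double-mutant replicate 3 had high osteoclast genes for its group.

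Ptprc itself, the gene that was knocked out (ENSMUSG00000026395, GRCm38 chr1:138062861-138175708), was the only gene that passed at an adjusted p under 0.05. It stood at 416, 230, 414 and 543 CPM in FLT3 ITD replicates 1 to 4 (CPM is counts scaled by TMM library size). In double-mutant replicates 1 to 4 it stood at 54.1, 86.7, 63.8 and 54.5 CPM. Every double-mutant library lay below every FLT3 ITD library, with no overlap. The mean fell from 401 ± 129 to 64.8 ± 15.3 CPM (SD, n = 4 and 4), which is -2.63 as log2 fold change (SE 0.24; quasi-likelihood test of edgeR, Benjamini-Hochberg adjusted p = 0.000227). A level of 16.2% of the FLT3 ITD mean remained, as 1767 to 2507 counts in each double-mutant library. Where in the transcript these counts lie cannot be read from gene totals. With only the 8 compared libraries in the fit, the estimate for Ptprc was -2.66 and its edgeR adjusted p was 0.164. Flt3 was barely detected in these cultures, with 11, 10, 13 and 20 counts in FLT3 ITD and 1, 8, 6 and 13 in the double mutant, and the groups overlapped.

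Across all genes the difference was broad but varied between libraries. With all 16 libraries in the fit, edgeR called 0 genes higher (0% of 12093) and 1 lower (0.00827%), while 1445 (11.9%) lay higher and 1659 (13.7%) lower at an unadjusted p under 0.05. On the same counts DESeq2 called 370 higher and 614 lower, and limma voom with sample quality weights 3868 and 3131. Without regard to a test, 598 genes (4.95%) had all 4 double-mutant libraries above all 4 FLT3 ITD libraries, and 426 (3.52%) had all 4 below. Positive log2 fold changes made up 52% of all genes, and the median over all genes was 0.03. On the deposited TPM, which are scaled to gene length, that median was 0.22, and 1122 genes lay above without overlap and 73 below, a share of 93.9% higher against 58.4% on CPM. The genes higher without overlap had a median length of 6789 bases, those lower without overlap 3068 and all genes tested 4513. The length trends of FLT3 ITD replicates 2 and 4 (rho of -0.46 and -0.181) run in the same direction. Their part in the balance of higher and lower genes was not tested.

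**Figure D1:**
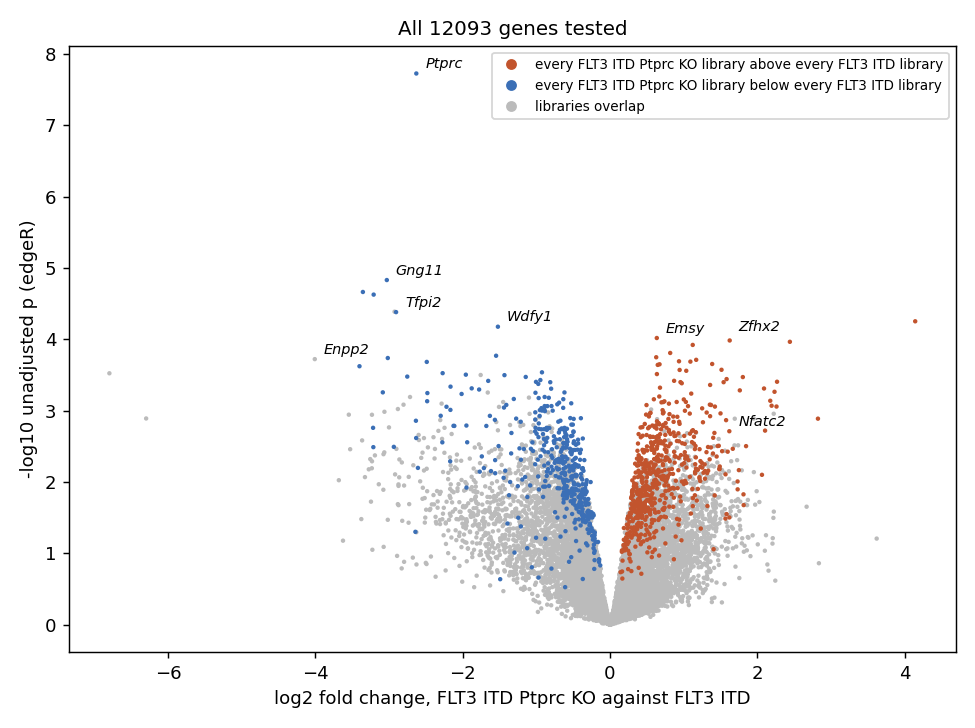
Each point is 1 of the 12093 genes tested, by log2 fold change of FLT3 ITD Ptprc KO against FLT3 ITD (x axis) and -log10 unadjusted p from edgeR (y axis). Orange and blue points mark the 598 genes above and 426 genes below without overlap between libraries, grey points overlap, and Ptprc lies apart from all other genes.

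The number of genes passing at an adjusted p under 0.05 was far larger in 2 of the 8 fits that left out 1 library. Without FLT3 ITD replicate 4, 821 genes passed higher (6.73% of 12197) and 977 lower (8.01%). Without double-mutant replicate 3, 392 passed higher (3.22% of 12190) and 923 lower (7.57%). Leaving out any other single library gave 0 or 1 higher and 1 or 2 lower. At an unadjusted p under 0.05 the counts ranged from 885 higher (without double-mutant replicate 1) to 2475 (without FLT3 ITD replicate 4), and from 777 lower (without FLT3 ITD replicate 2) to 2304 (without double-mutant replicate 3). Without FLT3 ITD replicate 2, 973 lay higher. Genes without overlap, which become more frequent with fewer libraries, numbered 1005 above and 691 below without double-mutant replicate 2. The calls of the 2 large fits shared 802 genes, 236 higher and 566 lower, which is 44.6% of the calls without FLT3 ITD replicate 4 and 61% of those without double-mutant replicate 3. These 2 fits use the same libraries except for the ones left out, so shared calls are not a replication. The libraries left out were known to stand apart from their groups, so adjusted p from these fits are descriptions. Of the shared genes, 302 also had no overlap between groups with all 8 libraries kept, 160 higher and 142 lower.

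**Figure D2:**
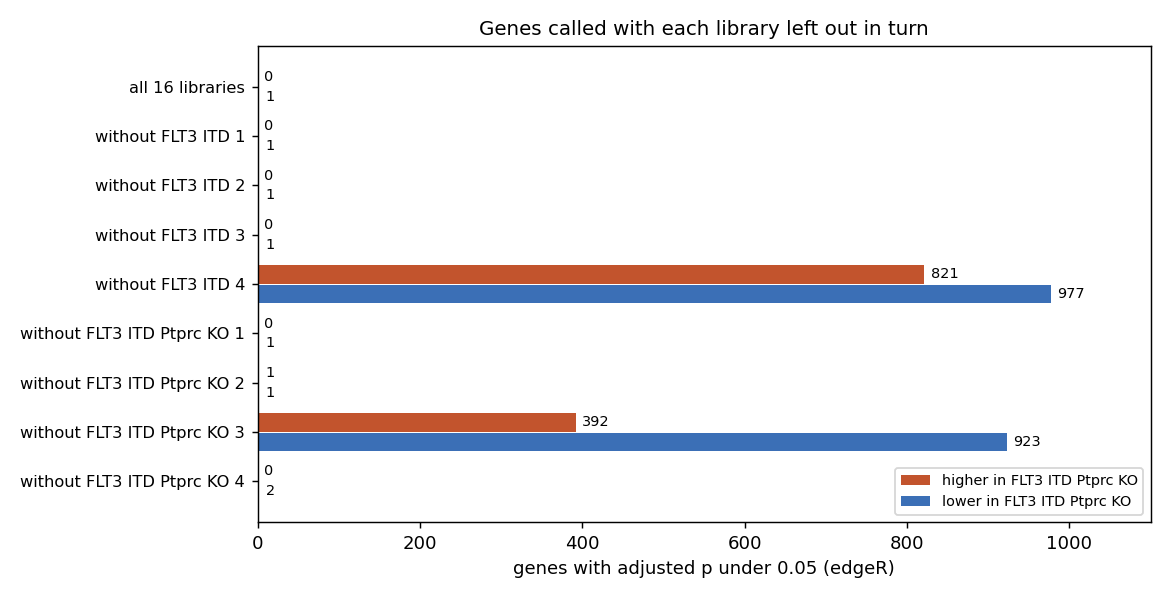
Bars show the number of genes with an edgeR adjusted p under 0.05 (x axis, linear from 0) in the fit of all 16 libraries and in each fit that leaves out 1 of the 8 compared libraries. Orange bars are genes higher and blue bars genes lower in FLT3 ITD Ptprc KO; only the fits without FLT3 ITD replicate 4 (821 and 977) and without FLT3 ITD Ptprc KO replicate 3 (392 and 923) show visible bars.

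Among genes without overlap and with at least 5 CPM in 1 group, those with the lowest p on the lower side after Ptprc were Gng11, Tfpi2 and Wdfy1. Gng11, a gamma subunit of heterotrimeric G proteins (chr6:4003904-4008445), stood at 6.24, 21.7, 5.57 and 7.53 CPM in FLT3 ITD replicates 1 to 4. In the double mutant it stood at 1.16, 1.00, 2.18 and 0.66 CPM, a log2 fold change of -3.03 (SE 0.48, edgeR adjusted p = 0.0715). The highest library was FLT3 ITD replicate 2, and the lowest FLT3 ITD library was still above the highest double-mutant library. Tfpi2, a secreted inhibitor of serine proteases (chr6:3962595-3988919), stood at 5.23, 9.23, 4.31 and 2.62 CPM against 0.398, 0.657, 1.47 and 0.33 CPM (-2.90, SE 0.50, edgeR adjusted p = 0.0839). Both genes passed in each of the fits that leave out FLT3 ITD replicate 4 or double-mutant replicate 3 (edgeR adjusted p = 0.0195 and 0.0223 for each).

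Wdfy1, encoding an endosomal FYVE-domain protein (chr1:79702262-79776143), stood at 190, 211, 179 and 121 CPM in FLT3 ITD and at 46, 56.8, 44.7 and 97 CPM in the double mutant. Double-mutant replicate 4 came closest to the FLT3 ITD libraries without reaching them. Its log2 fold change was -1.52 (SE 0.28, edgeR adjusted p = 0.101). The end of Wdfy1 overlaps that of Mrpl44 on the annotation, and the sources used here do not say whether counting used the strand. Mrpl44 had a log2 fold change of -0.66 (SE 0.25) with overlapping groups.

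The other genes lower without overlap covered several functions. Rnd1, a small GTPase that loosens the actin cytoskeleton, stood at 23, 26.3, 21.8 and 12.3 CPM in FLT3 ITD and 8.27, 8.02, 10.2 and 4.35 CPM in the double mutant, a log2 fold change of -1.43 (SE 0.31, edgeR adjusted p = 0.103). Sgms2, a sphingomyelin synthase of the plasma membrane, stood at 19.3, 14.6, 18.1 and 13.6 CPM against 4.69, 8.13, 4.17 and 3.90 CPM (-1.65, SE 0.36). All double-mutant libraries were below all FLT3 ITD libraries for both genes. Atf4, the transcription factor of the integrated stress response, had a mean of 309 ± 73 CPM in FLT3 ITD and 176 ± 20.3 CPM in the double mutant (SD, n = 4 and 4; -0.81, SE 0.18). Gss, glutathione synthetase, had means of 95.2 ± 43.2 and 43.1 ± 3.1 CPM (SD, n = 4 and 4; -1.14, SE 0.25), with FLT3 ITD replicate 2 highest at 160 CPM. Faim, an inhibitor of apoptosis, had means of 62.3 and 31.1 CPM. Xkr8, a phospholipid scramblase activated by caspases (-0.80), Snrnp35 of the minor spliceosome (-0.92), and the methyltransferase genes Mettl9 (-0.62) and Mettl22 (-0.97) lay lower in the same way. So did Manbal (-0.94) and Zswim7 (-1.01).

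On the higher side the genes with the lowest p had varied functions. Zfhx2, a zinc finger homeobox gene (chr14:55060262-55092324), stood at 2.54, 1.21, 3.38 and 4.41 CPM in FLT3 ITD and at 9.77, 9.23, 8.17 and 8.49 CPM in the double mutant, a log2 fold change of 1.63 (SE 0.31, edgeR adjusted p = 0.103). The double-mutant libraries were tightly grouped and well above all FLT3 ITD libraries. Emsy, encoding a chromatin protein that binds BRCA2 (chr7:98587137-98656783), stood at 20.1, 15.7, 22.4 and 19.9 CPM against 29, 31, 33.1 and 28.5 CPM (0.64, SE 0.12). Jade2, a scaffold of a histone acetyltransferase complex, stood at 28, 16.7, 29.7 and 32.6 CPM against 85.3, 54.3, 45.8 and 48 CPM (1.12, SE 0.22), with double-mutant replicate 1 highest. Further genes of this set were Hltf, a DNA translocase of damage tolerance (0.64), Nufip2, an RNA-binding protein (0.63), and Bmt2, also called Samtor, a sensor of methyl donor supply in mTORC1 signalling (0.65).

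Cep152, Cenpj and Spice1, each with a role at the centriole, were also among the 15 genes; no centriole list was tested. Cep152, a scaffold for centriole duplication, had a mean of 8.38 ± 2.21 CPM in FLT3 ITD and 17.9 ± 4.71 CPM in the double mutant (SD, n = 4 and 4; log2 fold change 1.09, SE 0.22, edgeR adjusted p = 0.103). Cenpj, which sets centriole length, had means of 7.11 ± 1.46 and 14.6 ± 3.35 CPM (SD, n = 4 and 4; 1.04, SE 0.22), and Spice1, also needed for centriole duplication, 5.55 ± 0.786 and 10.6 ± 2.17 CPM (SD, n = 4 and 4; 0.94, SE 0.19). All 3 lay outside the lists of replication and mitosis genes described further on.

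Cd72, an inhibitory receptor with an ITIM motif known from B cells and macrophages, stood at 59.2, 38.9, 58 and 74.5 CPM in FLT3 ITD and at 201, 82.4, 207 and 169 CPM in the double mutant. Double-mutant replicate 2 was the lowest of its group and only slightly above FLT3 ITD replicate 4. Its log2 fold change was 1.51 (SE 0.32, edgeR adjusted p = 0.103). Ulbp1, a ligand of the activating NK cell receptor NKG2D, stood at 31.9, 18.8, 31.7 and 15.6 CPM against 83.4, 46.8, 42.3 and 83.9 CPM (1.39, SE 0.28). Fmnl1, a formin of blood cells that nucleates actin at podosomes, stood at 160, 116, 161 and 186 CPM against 253, 222, 271 and 248 CPM (0.67, SE 0.14). Both genes had a clear gap between the groups. Iqsec2, an exchange factor for ARF GTPases (0.82), Nicn1, a tubulin polyglutamylase subunit (1.17), and the kinase gene Cdkl2 (0.95) completed the set.

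**Figure D3:**
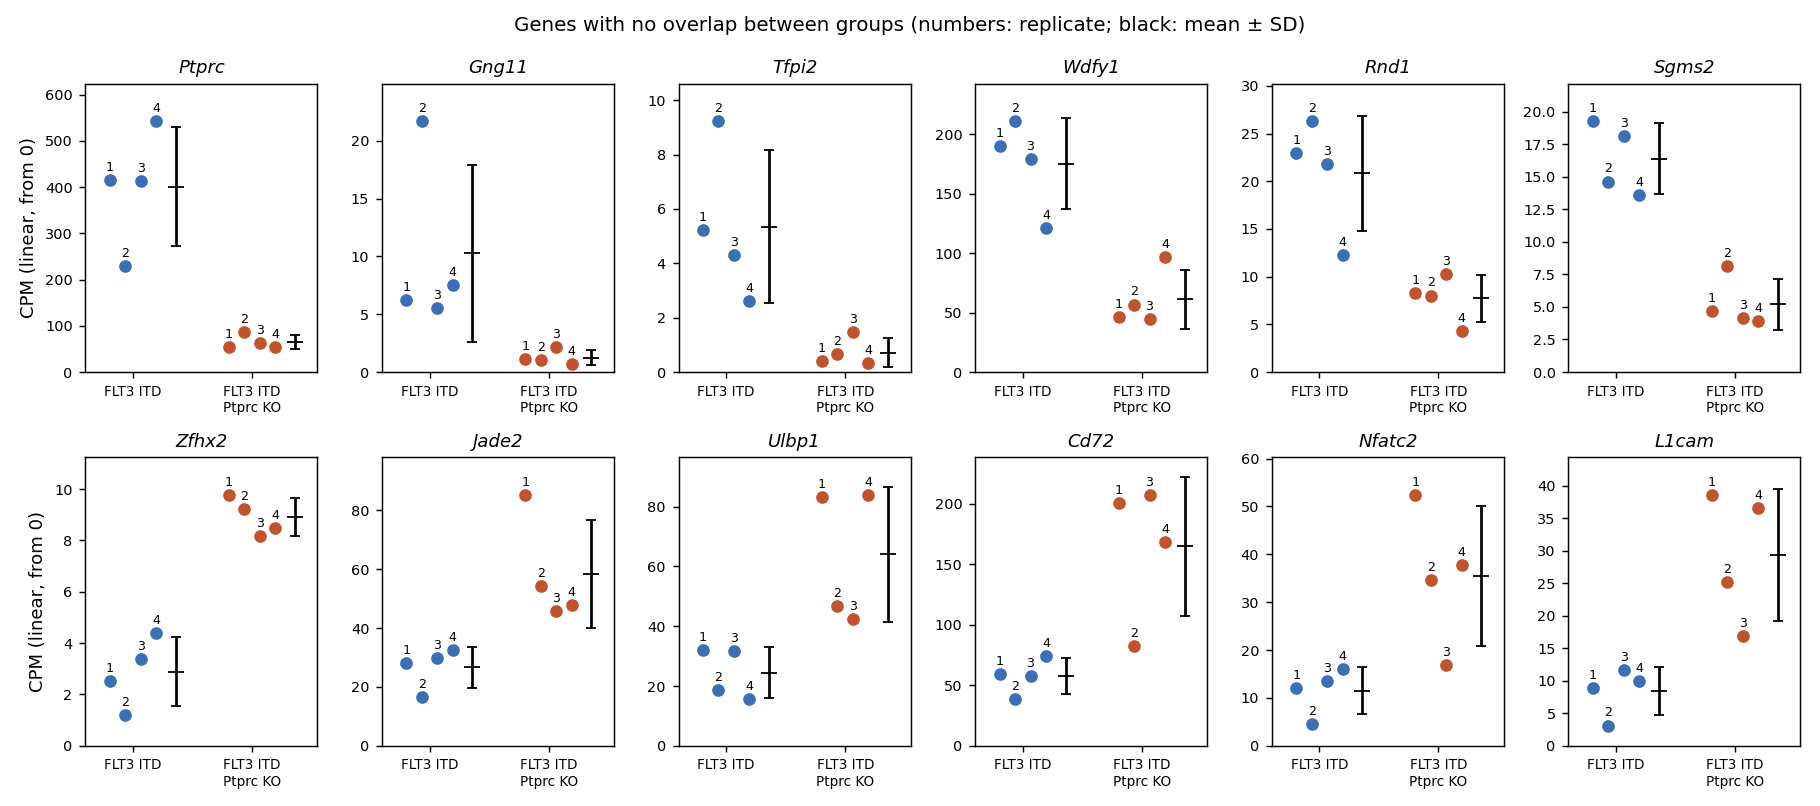
Panels give the CPM (y axis, linear from 0) of 12 genes whose libraries do not overlap, with 1 point per library numbered by replicate (blue FLT3 ITD, orange FLT3 ITD Ptprc KO) and the mean ± SD in black. The upper row shows lower genes, from Ptprc (401 to 64.8 CPM on average) to Sgms2, and the lower row higher genes, from Zfhx2 (2.89 to 8.92 CPM on average) to L1cam.

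Of the genes that passed both without FLT3 ITD replicate 4 and without double-mutant replicate 3, the 10 with the most negative and the 10 with the most positive log2 fold changes were taken. Enpp2, encoding autotaxin, the enzyme that makes lysophosphatidic acid, stood at 5.95, 11.3, 8.22 and 0.583 CPM in FLT3 ITD and at 0.306, 0.38, 0.619 and 0.3 CPM in the double mutant. FLT3 ITD replicate 4 thus lay within the double-mutant range, and the log2 fold change was -4.01 with all libraries (SE 0.81, edgeR adjusted p = 0.103), -4.39 without that library (adjusted p = 0.0125) and -4.29 without double-mutant replicate 3 (adjusted p = 0.0268). Sec16b, of the endoplasmic reticulum export sites, stood at 16.4, 22.3, 12.3 and 2.79 CPM against 1.19, 1.76, 3.06 and 1.05 CPM (-2.92, SE 0.50, edgeR adjusted p = 0.0839), with the same library low. The adhesion receptor gene Adgrb1, also called Bai1, stood at 20.3, 25, 18.8 and 1.5 CPM against 0.919, 0.553, 5.18 and 0.33 CPM (-3.23, SE 0.98). The metallothionein gene Mt3 had a log2 fold change of -3.23, the steroid-converting reductase gene Akr1c18 -2.92, Rcan2, which encodes a calcineurin regulator, -3.07, the desmosome gene Perp -3.55 and Mapk4 -2.90, all with overlapping groups. Gng11 and Tfpi2 belonged to this set as well.

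On the higher side of the same selection stood Nfatc2, a calcineurin-dependent transcription factor related to the osteoclast factor NFATc1. Its level was 12.1, 4.55, 13.4 and 15.9 CPM in FLT3 ITD and 52.4, 34.7, 16.8 and 37.8 CPM in the double mutant, a log2 fold change of 1.62 (SE 0.43, edgeR adjusted p = 0.106) without overlap. Double-mutant replicate 3 lay just above FLT3 ITD replicate 4. L1cam, a cell adhesion molecule known from neurons, stood at 8.84, 3.12, 11.6 and 9.95 CPM against 38.6, 25.2, 16.9 and 36.5 CPM (1.80, SE 0.39), also without overlap. Slfn9, a Schlafen gene, had a log2 fold change of 1.76, the G-protein regulator gene Rgs11 1.85, Zfhx2 1.63 and the ciliary transport gene Ift80 1.54, with no overlap in any of them. Ahrr, the repressor of the aryl hydrocarbon receptor (1.79), and Ltbp2, a matrix protein gene (1.56), had overlapping groups. The class Ib genes H2-Q6 (2.22) and H2-Q7 (1.69) are close copies between which counting can split or lose reads, and double-mutant replicate 2, at 3.56 and 8.58 CPM, lay within the FLT3 ITD range for H2-Q6 and below it for H2-Q7.

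Genes of bone resorption lay lower in 3 of the 4 double-mutant cultures. The list held the proteases, the acid pump subunits and the ion transport of the ruffled border. Of its 18 measured members, 17 had negative log2 fold changes, with a median of -1.04 beside 0.03 for all genes. At an unadjusted p under 0.05, 12 lay lower and 0 higher, where the shares over all genes were 13.7% and 11.9%. After adjustment over all genes 0 members passed, and 0 were free of overlap. Ctsk, the cathepsin that degrades bone collagen, stood at 12258, 18506, 11778 and 4203 CPM in FLT3 ITD and at 1904, 1399, 8508 and 1169 CPM in the double mutant. FLT3 ITD replicate 4 and double-mutant replicate 3 had exchanged their order relative to the groups, and the log2 fold change was -1.85 (SE 0.62, edgeR adjusted p = 0.122). Acp5, the tartrate-resistant acid phosphatase used to stain osteoclasts, stood at 8572, 12732, 8414 and 3223 CPM against 1362, 1595, 7125 and 1216 CPM (-1.54, SE 0.57). Car2, the carbonic anhydrase that supplies protons, stood at 627, 745, 618 and 180 CPM against 62.5, 67.7, 379 and 54.6 CPM (-1.95, SE 0.66). Car2 and Acp5 showed the same pair of libraries out of line. Without FLT3 ITD replicate 4, 9 members passed lower, and without double-mutant replicate 3, 14 did, where 8.01% and 7.57% of all genes did. Each of these fits leaves out a library known to be out of line in osteoclast genes. The 2 counts are therefore descriptions and lend the difference no weight.

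The mean log2 CPM of the resorption list made this order visible across cultures. It was 10.55, 10.73, 10.52 and 9.44 in FLT3 ITD replicates 1 to 4, and 8.68, 8.95, 10.18 and 8.58 in double-mutant replicates 1 to 4. Only double-mutant replicate 3 lay above FLT3 ITD replicate 4. The list median ranged from -1.65 to -0.90 when each library was left out in turn, and was -0.96 on TPM, where all genes had 0.22.

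Genes of cell fusion and osteoclast identity showed the same layout. Of 20 measured members, 18 had negative log2 fold changes (median -1.19). At an unadjusted p under 0.05, 10 lay lower and 0 higher, beside 13.7% and 11.9% of all genes. Free of overlap was 1 member, where 3.52% of all genes lay lower without overlap. That member was Calcr, the calcitonin receptor, a marker of mature osteoclasts. It stood at 89, 70.5, 87.4 and 32.2 CPM in FLT3 ITD and 14.5, 9.61, 29.4 and 3.33 CPM in the double mutant, a log2 fold change of -2.30 (SE 0.57, edgeR adjusted p = 0.105). The lowest FLT3 ITD library, replicate 4, was only slightly above double-mutant replicate 3. Itgb3, the beta subunit of the vitronectin receptor that anchors the cell to bone, stood at 491, 525, 476 and 143 CPM against 114, 115, 246 and 48.5 CPM (-1.64, SE 0.48). Mst1r, a receptor kinase expressed in osteoclasts, stood at 367, 334, 358 and 96.7 CPM against 33.8, 38.6, 233 and 20.4 CPM (-1.83, SE 0.67). Dcstamp, a membrane protein required for fusion, had a log2 fold change of -1.37 (SE 0.50) and its relative Ocstamp -1.05 (SE 0.64).

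The transcription factor network above these genes did not share this direction. The list of RANK signalling and osteoclast transcription factors had a median of 0.05 (-0.05 to 0.18 with each library left out) over 30 measured members, 16 positive and 14 negative. At an unadjusted p under 0.05, 3 lay higher and 2 lower, smaller shares than the 11.9% and 13.7% over all genes. Nfatc1, the main osteoclast transcription factor, stood at 587, 319, 572 and 127 CPM in FLT3 ITD and 124, 146, 697 and 404 CPM in the double mutant (-0.23, SE 0.51), and Tnfrsf11a, which encodes the receptor RANK, had -0.22 (SE 0.22). Both genes overlapped fully between the groups. Spi1, encoding the myeloid factor PU.1, was lower without overlap, at 706, 1004, 710 and 677 CPM against 485, 574, 631 and 490 CPM (-0.51, SE 0.15). Map3k14, the NIK kinase of the noncanonical NF-kB pathway, was higher without overlap, at 20.3, 11.4, 20.6 and 30.7 CPM against 34, 33.4, 34.4 and 32.3 CPM (0.69, SE 0.21), and so was Traf3, the adaptor that restrains NIK (0.48, SE 0.19).

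Repressors of osteoclast differentiation had positive log2 fold changes in 15 of 18 members (median 0.43; 0.09 to 1.22 with each library left out). At an unadjusted p under 0.05, 0 lay higher and 1 lower, where the shares over all genes were 11.9% and 13.7%. Without overlap, 0 lay higher and 1 lower, beside 4.95% and 3.52% of all genes. Rcan1, a calcineurin inhibitor that is itself an NFAT target, lay on the other side. It stood at 132, 253, 117 and 120 CPM in FLT3 ITD and at 47.4, 74.9, 53.3 and 76 CPM in the double mutant, a log2 fold change of -1.31 (SE 0.30, edgeR adjusted p = 0.104) without overlap.

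Subunits of the V-ATPase, the proton pump of lysosomes and of the ruffled border, lay lower as a group. Of 18 measured, 16 had negative log2 fold changes (median -1.05), 14 of them at an unadjusted p under 0.05 and 0 higher. The shares over all genes were 13.7% lower and 11.9% higher. Free of overlap were 0 subunits, where 3.52% of all genes lay lower without overlap. Atp6v1g1 stood at 366, 680, 354 and 254 CPM in FLT3 ITD and at 139, 163, 279 and 124 CPM in the double mutant (-1.23, SE 0.31). Double-mutant replicate 3 overlapped FLT3 ITD replicate 4, as in the resorption genes. Atp6v0d2, the isoform abundant in osteoclasts and needed for fusion, stood at 1724, 1779, 1678 and 456 CPM against 210, 457, 1406 and 345 CPM (-1.22, SE 0.54). By contrast, 40 lysosomal hydrolase genes had a median of -0.12, which was 0.08 on TPM, where all genes had 0.22. Hexa, a subunit of beta-hexosaminidase, was lower without overlap (-0.83, SE 0.29), and Ids, iduronate sulfatase, was higher without overlap (0.61, SE 0.16). Podosome and sealing zone genes also had no common direction (median -0.07, and 0.15 on TPM), although Vcl, vinculin, had -0.99 (SE 0.35) and Cttn, cortactin, -1.57 (SE 0.65). Among 19 measured coupling factors, by which osteoclasts signal to bone-forming cells, the median was 0.09 (-0.33 to 0.24 with each library left out), with Sphk1, sphingosine kinase, at -2.27 (SE 0.93) and Efnb2, ephrin B2, at -1.70 (SE 0.69).

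Nuclear genes of the respiratory chain lay lower throughout. All 37 measured subunits and assembly genes of complex I had negative log2 fold changes (median -0.91, range -1.43 to -0.61), 36 of them at an unadjusted p under 0.05, and 5 had no overlap. Over all genes, 13.7% lay lower at an unadjusted p under 0.05 and 3.52% lay lower without overlap. The 38 genes of complexes II to V were all negative too (median -0.93), 35 at an unadjusted p under 0.05. Only 1 of them had no overlap, a smaller share than over all genes. Ndufs8, an iron-sulfur subunit of complex I, stood at 77.6, 162, 78.8 and 78.8 CPM in FLT3 ITD and at 51.7, 50.2, 57.6 and 55.2 CPM in the double mutant (-0.89, SE 0.20, edgeR adjusted p = 0.104). FLT3 ITD replicate 2, the library whose values fell most with gene length, was far above the others. Cox6c, a small subunit of cytochrome oxidase, stood at 176, 371, 179 and 129 CPM against 97, 105, 146 and 102 CPM (-0.93, SE 0.28), with the same library highest and double-mutant replicate 3 above FLT3 ITD replicate 4. Without FLT3 ITD replicate 2 the medians were -0.52 for complex I and -0.51 for complexes II to V, and on TPM both were -0.63. The median over all genes was 0.02 without that replicate and 0.22 on TPM. TCA cycle and mitochondrial biogenesis genes had a median of -0.67 over 25 members, 22 of them negative.

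Ribosomal protein genes lay lower by less. Mitochondrial ribosomal proteins were negative in 76 of 76 (median -0.57, 51 at an unadjusted p under 0.05 and 14 without overlap), and cytosolic ones in 80 of 83 (median -0.44, 48 at an unadjusted p under 0.05 and 2 without overlap). The shares over all genes were 13.7% lower at that p and 3.52% lower without overlap. Mrpl36 stood at 48.6, 108, 51.1 and 54 CPM in FLT3 ITD and 29, 32.3, 40.3 and 35.4 CPM in the double mutant (-0.93, SE 0.22). Rps16 stood at 317, 586, 308 and 401 CPM against 256, 231, 288 and 275 CPM (-0.62, SE 0.17). The double-mutant libraries were the lowest in both genes, and FLT3 ITD replicate 2 the highest. Without that replicate the list medians were -0.23 and -0.20, and on TPM -0.29 and -0.18. The median over all genes was 0.22 on TPM and 0.03 with all libraries in the main fit, so the TPM values include a shift of all genes. These are short genes as a class, and the part of the length trends of FLT3 ITD replicates 2 and 4 in their difference was not tested.

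Genes of the cell cycle lay higher. All 40 measured mitosis genes had positive log2 fold changes (median 1.29, range 0.60 to 1.71), 17 of them at an unadjusted p under 0.05 and 0 lower, but 1 was free of overlap. Of 38 DNA replication genes, 37 were positive (median 0.86), 20 at an unadjusted p under 0.05, and 4 had no overlap. Over all genes, 11.9% lay higher at an unadjusted p under 0.05. Without overlap 4.95% of all genes lay higher, a larger share than 1 of 40 mitosis genes. The mean log2 CPM of the mitosis list was 5.51, 5.37, 5.51 and 2.93 in FLT3 ITD replicates 1 to 4 and 7.32, 4.64, 5.49 and 6.70 in double-mutant replicates 1 to 4. Double-mutant replicates 1 and 4 were the high libraries and FLT3 ITD replicate 4 the low one, while double-mutant replicates 2 and 3 were at or under the other FLT3 ITD libraries. With each library left out in turn the median stayed between 0.75 and 1.58.

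Among single members, Incenp, the scaffold of the chromosomal passenger complex, stood at 80.2, 65.2, 79.9 and 45.7 CPM in FLT3 ITD and at 280, 80.8, 85.2 and 174 CPM in the double mutant (log2 fold change 1.19, SE 0.38, edgeR adjusted p = 0.115). It was the 1 mitosis gene without overlap, by a margin under 1 CPM. Mki67, the proliferation antigen Ki-67, stood at 260, 108, 290 and 22.4 CPM against 811, 155, 255 and 550 CPM (1.38, SE 0.67). Top2a, the topoisomerase that untangles chromosomes, stood at 232, 139, 229 and 32.3 CPM against 801, 115, 250 and 572 CPM (1.46, SE 0.64). In both, replicates 1 and 4 of the double mutant were the 2 highest libraries. E2f2, a transcription factor that drives S phase entry, was higher without overlap, at 14.7, 11.3, 15.4 and 10.7 CPM against 44.4, 27.3, 17.2 and 27.8 CPM (1.17, SE 0.37). The replicative helicase genes Mcm3 (0.98, SE 0.33) and Mcm4 (0.82, SE 0.29) and the helicase loader gene Cdc6 (1.19, SE 0.42) also had no overlap.

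Because the mitosis genes kept 1 direction together, their promoters are shown for a pair of members, taken from RefSeq (build GRCm38.p6), as the 250 bases before the first listed start, 5′ to 3′ on the strand of the gene. Capitals mark CCAAT, the box bound by NF-Y, and TTTGAA, the core of the cell cycle homology element, each searched on both strands. Top2a lies at chr11:99024190-99024439 on the minus strand and Ccnb2, which encodes cyclin B2, at chr9:70421555-70421804 on the minus strand.
Top2a: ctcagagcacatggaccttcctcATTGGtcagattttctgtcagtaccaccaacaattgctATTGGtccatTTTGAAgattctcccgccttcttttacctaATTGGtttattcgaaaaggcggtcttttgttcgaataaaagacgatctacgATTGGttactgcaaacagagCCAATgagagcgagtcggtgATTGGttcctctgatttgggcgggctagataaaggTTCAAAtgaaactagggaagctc
Ccnb2: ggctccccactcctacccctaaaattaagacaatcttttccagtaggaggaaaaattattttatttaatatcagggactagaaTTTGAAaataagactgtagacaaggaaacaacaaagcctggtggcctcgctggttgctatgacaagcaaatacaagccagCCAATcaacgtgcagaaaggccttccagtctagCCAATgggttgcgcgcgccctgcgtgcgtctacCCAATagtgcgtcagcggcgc
The Top2a window holds 6 CCAAT and 2 TTTGAA matches, and the Ccnb2 window 3 and 1. Over the tested genes with a promoter entry (9675), 36.8% of windows hold CCAAT and 10.7% hold TTTGAA. In the mitosis list CCAAT is in 25 of 33 windows (75.8%) and TTTGAA in 12 (36.4%), and in the replication list CCAAT is in 21 of 30 (70%) and TTTGAA in 5 (16.7%). Among lists that lay lower, CCAAT is in 17 of 30 windows for complexes II to V (56.7%) and 10 of 33 for complex I (30.3%). It is in 4 of 12 windows (33.3%) in each of the V-ATPase and resorption lists. CACGTG, the E-box within the element bound by TFEB at lysosomal genes, is in 8.5% of all windows, 10 of 31 lysosomal hydrolase windows (32.3%) and 2 of 12 V-ATPase windows (16.7%). A match is a description of the letters and not a bound site. Ccnb2 itself stood at 41.6, 67.1, 43.7 and 4.54 CPM in FLT3 ITD and at 114, 21.9, 33.9 and 89.7 CPM in the double mutant (0.73, SE 0.68).

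**Figure D4:**
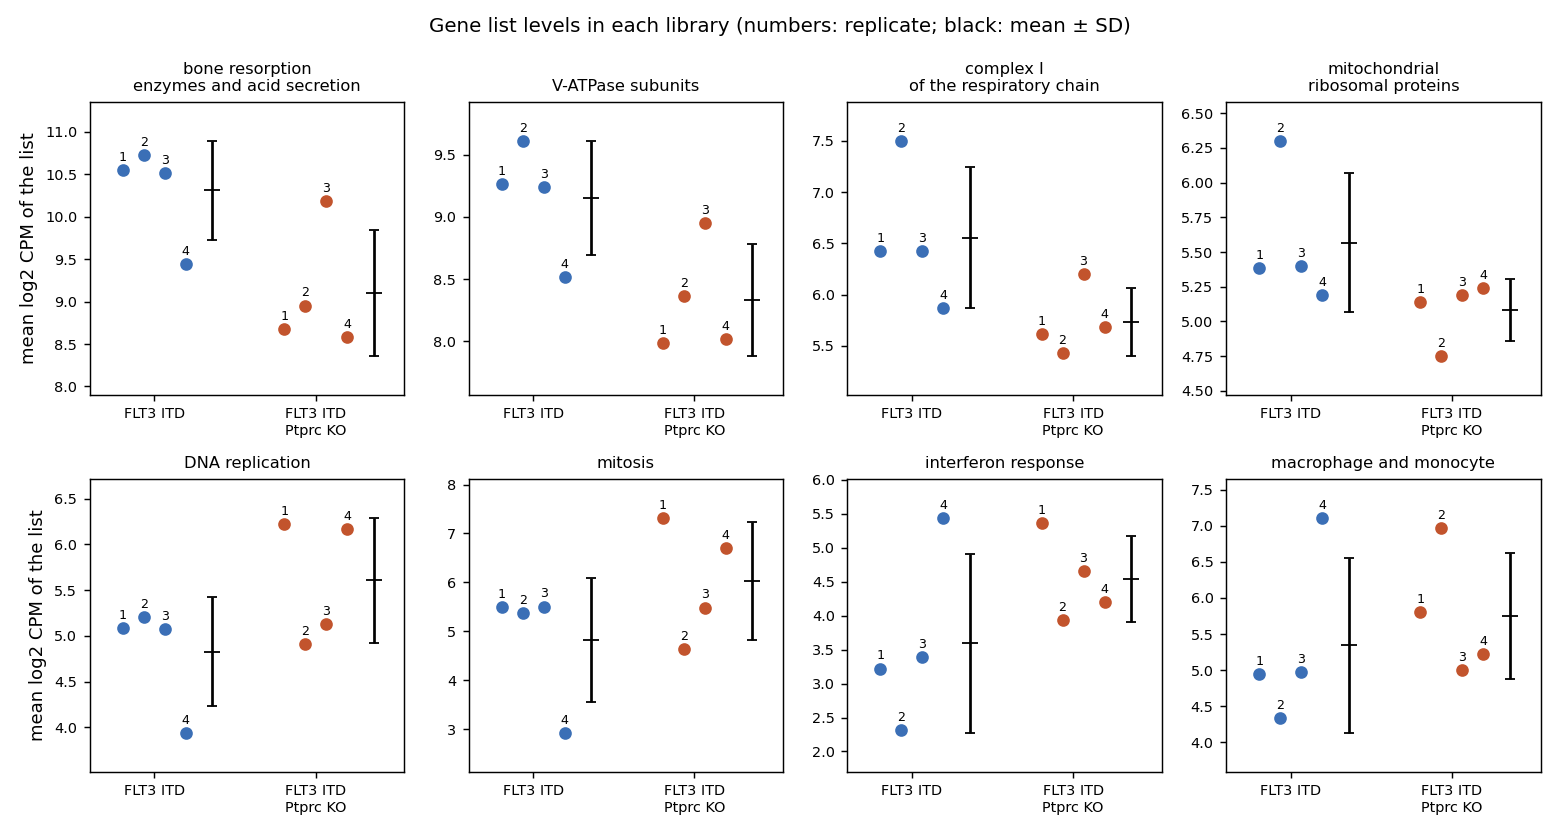
Panels give the mean log2 CPM of 8 gene lists in each library (y axis, log2 scale not starting at 0), with 1 point per library numbered by replicate (blue FLT3 ITD, orange FLT3 ITD Ptprc KO) and the mean ± SD in black. FLT3 ITD replicate 4 and FLT3 ITD Ptprc KO replicate 3 lie out of their groups in the resorption panel (9.44 and 10.18), and FLT3 ITD replicate 2 stands alone in the complex I panel (7.5).

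The immediate substrates and partners of CD45 were examined as a list of Src-family kinases and their regulators. Its members, Ptprc included, lay on both sides (13 of 24 positive, median 0.23). Csk, the kinase that places the inhibitory phosphate CD45 removes, was higher without overlap, at 124, 129, 127 and 147 CPM in FLT3 ITD and at 194, 153, 149 and 176 CPM in the double mutant (0.35, SE 0.11, edgeR adjusted p = 0.116). Skap2, an adaptor that links Src kinases to integrins, was lower without overlap (-0.38, SE 0.16). Src, the family member most tied to osteoclast function, stood at 500, 432, 509 and 167 CPM against 142, 185, 471 and 250 CPM (-0.62, SE 0.38), with FLT3 ITD replicate 4 low and double-mutant replicate 3 high for their groups. Of the other kinases, Fyn had 0.90 (SE 0.38) and Lyn 0.21 (SE 0.14), both overlapping.

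Among 22 measured tyrosine phosphatases, 9 had positive log2 fold changes, and the median was -0.21 (0.15 on TPM, where all genes had 0.22). Besides Ptprc, 4 were free of overlap, 3 higher and 1 lower, where 4.95% of all genes were higher and 3.52% lower without overlap. Ptprs, a receptor phosphatase that binds heparan sulfate, stood at 108, 49.6, 102 and 101 CPM in FLT3 ITD and at 169, 231, 144 and 163 CPM in the double mutant (0.97, SE 0.21, edgeR adjusted p = 0.104). Ptpro, a receptor phosphatase whose short form is expressed in osteoclasts, stood at 56.4, 41.5, 56.4 and 51.5 CPM against 84.3, 65.9, 87.3 and 80.2 CPM (0.63, SE 0.16), and Ptpn9 had 0.29 (SE 0.11). All 4 double-mutant libraries were above the FLT3 ITD libraries in each. The fourth, Ptpn14, was lower at 0.57 to 1.16 CPM against 1.3 to 1.5 CPM (-0.88, SE 0.43). Ptpn6, encoding SHP-1, had 0.26 (SE 0.14) with overlap.

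In the list of ITAM receptors, adaptors and kinases, which give osteoclast precursors their costimulation, 17 of 27 members were positive (median 0.18; 0.05 to 0.36 with each library left out). At an unadjusted p under 0.05, 6 lay higher and 2 lower, where the shares over all genes were 11.9% and 13.7%. The kinase Syk stood at 413 ± 83.2 CPM in FLT3 ITD and 412 ± 86.9 CPM in the double mutant (SD, n = 4 and 4; log2 fold change -0.01, SE 0.18). The adaptor genes Tyrobp (-0.16, SE 0.22) and Fcer1g (0.12, SE 0.34) lay within 1 SE of 0. Pik3cd, the leukocyte PI3-kinase subunit, was higher without overlap, at 101, 59.3, 105 and 79.3 CPM against 148, 130, 128 and 130 CPM (0.64, SE 0.16, edgeR adjusted p = 0.105). Pira2, an activating Ig-like receptor of a family of near copies, also lay higher without overlap (0.75, SE 0.27). Oscar, the collagen receptor of osteoclasts, stood at 285, 255, 275 and 103 CPM against 35, 29.8, 201 and 11.7 CPM (-1.72, SE 0.70).

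Genes of the STAT5 and ERK pathways had members on both sides, and whether FLT3 drove them in these cultures was not tested. Both list medians stayed positive with each library left out, but came close to 0 without double-mutant replicate 2. STAT5 feedback and target genes had a median of 0.50 (12 of 19 positive; 0.06 to 1.08 with each library left out). Socs2, a STAT5-induced inhibitor, was lower without overlap at low levels, 1.91, 3.99, 1.94 and 1.5 CPM in FLT3 ITD and 0.398, 0.657, 0.944 and 0.9 CPM in the double mutant (-1.68, SE 0.43, edgeR adjusted p = 0.105). Pim1, a kinase induced by FLT3 ITD in leukaemia cells, had 0.87 (SE 0.84), with FLT3 ITD replicate 4 and double-mutant replicate 2 high. ERK feedback and immediate early genes had a median of 0.42 (21 of 28 positive), which was 0.0361 without double-mutant replicate 2 and 1.08 without FLT3 ITD replicate 4. Spry1, which restrains receptor signalling to ERK, was lower without overlap, at 13.7, 22.5, 13.7 and 17 CPM against 2.79, 3.67, 11.6 and 2.37 CPM (-1.71, SE 0.54). Double-mutant replicate 3 was again nearest the FLT3 ITD libraries. Egr1, an early response gene, had 2.67 (SE 1.04), carried by 114 CPM in double-mutant replicate 2.

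Genes of apoptosis, progenitors and receptors were mixed. The BCL2 family had a median of -0.26 (10 of 16 negative), with Bad at -0.70 (SE 0.23) and Bok at -2.58 (SE 0.87). Class III receptor kinases, cytokine receptors and progenitor genes had a median of 0.26 that ranged from -0.39 to 0.47 with each library left out. Csf1r, the M-CSF receptor, stood at 1605 ± 281 CPM in FLT3 ITD and 1602 ± 599 CPM in the double mutant (SD, n = 4 and 4; log2 fold change 0.00, SE 0.25). Kit and Gata2, progenitor genes at a few CPM, had -0.91 (SE 0.42) and -1.51 (SE 0.62).

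Innate immune genes mostly had positive log2 fold changes, and the size of the difference depended on single libraries. Interferon response genes were positive in 32 of 33 (median 0.49). At an unadjusted p under 0.05, 1 lay higher, a smaller share than the 11.9% over all genes. When FLT3 ITD replicate 4 was left out 16 passed higher (median 1.71), where 6.73% of all genes did. That library was the highest of its group in this list, so the count is a description. Oas2, a sensor of double-stranded RNA, stood at 25.1, 7.84, 25.9 and 68.2 CPM in FLT3 ITD and at 89.4, 31.3, 71.7 and 69.4 CPM in the double mutant (1.04, SE 0.55). Irf7, the amplifier of the interferon response, stood at 14, 6.97, 16.6 and 103 CPM against 143, 16.4, 67.1 and 54.9 CPM (1.00, SE 0.77). In both genes FLT3 ITD replicate 4 lay among the double-mutant libraries. Toll-like receptors and adaptors had 18 of 23 members positive (median 0.73). The median was 0.26 without double-mutant replicate 2 and 1.29 without FLT3 ITD replicate 4. At an unadjusted p under 0.05, 2 members lay higher, and 1 was higher without overlap. These are smaller shares than the 11.9% and 4.95% over all genes. The member without overlap was Tlr4, the receptor for lipopolysaccharide, at 44.9, 17.5, 48.7 and 38.3 CPM against 77.6, 76.9, 50.8 and 50.1 CPM (0.77, SE 0.26).

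Antigen presentation genes followed. MHC class II and costimulation genes were positive in 16 of 16 (median 0.54, but -0.16 to 1.44 with each library left out). Cd80, a costimulatory ligand of T cells, was higher without overlap, at 12.1, 9.83, 10.7 and 19.4 CPM in FLT3 ITD and at 27.8, 26.2, 21.3 and 36.4 CPM in the double mutant (1.1, SE 0.25, edgeR adjusted p = 0.104). Its groups kept a gap in spite of the high FLT3 ITD replicate 4. Ciita, the master regulator of class II genes, had 1.27 (SE 0.43) with overlap. MHC class I presentation had 14 of 21 positive (median 0.21), with the chaperone gene Calr lower without overlap (-0.57, SE 0.19).

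Cytokines and inflammatory mediators had a median of 0.24 over 35 members, which turned to -0.46 at the lowest with a library left out. Nos2, inducible nitric oxide synthase, stood at 0.219, 0.13, 0.0625 and 0.333 CPM in FLT3 ITD and at 3.06, 0.865, 6.81 and 2.55 CPM in the double mutant, a log2 fold change of 4.14 (SE 0.74, edgeR adjusted p = 0.0966). The chemokine gene Cxcl9 was at most 0.125 CPM in FLT3 ITD and at least 0.33 CPM in the double mutant (2.82, SE 0.71). Both genes were without overlap but near the limit of detection in FLT3 ITD. Spp1, osteopontin, an abundant matrix protein of osteoclasts, was lower without overlap, at 1627, 2202, 1683 and 1992 CPM against 1201, 781, 1157 and 691 CPM (-0.97, SE 0.26, edgeR adjusted p = 0.107). In Spp1, unlike Ctsk, FLT3 ITD replicate 4 lay with its own group and double-mutant replicate 3 with its own.

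Markers of other cells were read for the make-up of the cultures, where fewer cells of a type and less RNA per cell cannot be told apart in bulk RNA. The summed level of 23 macrophage and monocyte markers was 7398, 6923, 7426 and 40927 CPM in FLT3 ITD replicates 1 to 4, and 20206, 37642, 8812 and 12127 CPM in double-mutant replicates 1 to 4. FLT3 ITD replicate 4 and double-mutant replicate 2 were highest, and the libraries low in macrophage markers were those high in resorption genes. In both groups Vsig4 had 0 counts, while Csf1r and Cd68 were abundant. The part of this balance in the resorption, interferon and repressor lists was not tested. Summed neutrophil markers ranged from 47.6 to 331 CPM in FLT3 ITD and from 30.3 to 234 CPM in the double mutant, dendritic cell markers from 110 to 435 and from 174 to 597 CPM, and T and NK cell markers from 0.520 to 11.6 and from 1.41 to 9.02 CPM. Of 11 mast cell markers 6 were at 0 in all 8 libraries, as were 5 of 11 erythroid markers. The stromal sum was 16.2 to 21.7 CPM in FLT3 ITD and 15.1 to 27.9 CPM in the double mutant. The osteoclast markers Ctsk and Acp5 were abundant in every library, the lowest value being 1169 CPM for Ctsk in double-mutant replicate 4.

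Whether CD45 loss acted differently with the Flt3 knock-in was tested as an interaction over all 16 libraries, that is, the difference above minus the difference between Ptprc KO and WT. Only Rbm44, an RNA-binding protein gene of chromosome 1, passed (1 of 12093, 0.00827%; log2 difference 6.54, edgeR adjusted p = 0.0309). The number of genes with a higher difference was 0 in 5 of the 8 fits that left out 1 library, with a replicate block, with a mean count of at least 50, on TPM and with FLT3 ITD replicates 1 and 3 summed. The Rbm44 call rests on the Ptprc KO libraries, which held 1 count in all, against 14, 32, 22 and 18 counts in WT. Rbm44 had 9, 12, 19 and 4 counts in FLT3 ITD and 33, 19, 14 and 25 in the double mutant. At an unadjusted p under 0.05, 895 genes (7.4%) had a higher and 1225 (10.1%) a lower difference with the knock-in, and DESeq2 called 56 and 109. The list medians often had opposite signs in the 2 backgrounds. The resorption list stood at -1.04 with the knock-in and 0.32 without, complex I at -0.91 and 0.23, with 37 of 37 genes positive without it, and mitosis at 1.29 and -0.29, with 0 of 40 positive without it. The interaction medians were -1.38, -1.14 and 1.52. The signs without the knock-in were not shared by every Ptprc KO culture (mean log2 CPM, replicates 1 to 4). Resorption stood at 9.74, 10.8, 10.74 and 9.85 in Ptprc KO, replicates 1 and 4 being under the lowest WT library (9.96). Complex I stood at 6.12, 6.63, 6.69 and 5.91, where WT spanned 5.88 to 6.32. Mitosis stood at 6.35, 4.74, 4.89 and 4.65, where WT spanned 5.07 to 5.83, so replicate 1 was the highest of both groups. For Ctsk the log2 fold change was -1.85 with the knock-in and 0.42 without (edgeR adjusted p for the interaction = 0.263), so the difference between backgrounds did not pass for the single gene. The lists themselves were not tested.

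**Figure D5:**
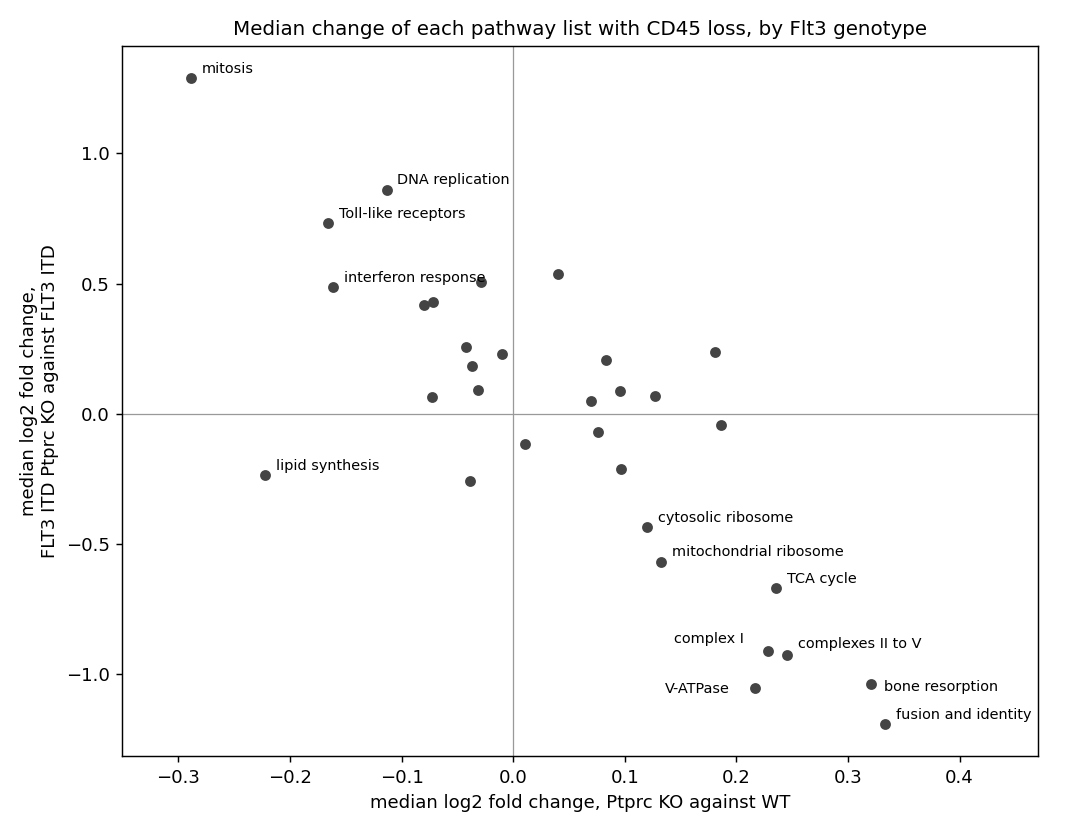
Each point is 1 pathway list, by its median log2 fold change of Ptprc KO against WT (x axis) and of FLT3 ITD Ptprc KO against FLT3 ITD (y axis), each axis with its own scale. Osteoclast and mitochondrial lists lie at lower right (resorption at 0.32 and -1.04) and mitosis at upper left (-0.29 and 1.29); the 2 comparisons share no library.

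Genes near Ptprc were described because a targeted allele can bring flanking DNA with it. Within 10 Mb of its start, 11 of 78 tested genes (14.1%, 95% Clopper-Pearson interval 7.26 to 23.8) had no overlap between the groups, 8 higher and 3 lower, against 8.47% of all genes. The interval treats genes as independent, which they are not, and it includes the share of all genes. Ipo9, a nuclear import receptor gene (chr1:135382312-135430499), stood at 52.5, 26.3, 52.7 and 53.4 CPM in FLT3 ITD and at 175, 118, 58.7 and 123 CPM in the double mutant (1.36, SE 0.30, edgeR adjusted p = 0.104). The kinesin gene Kif21b (chr1:136131389-136177998) stood at 53.5, 14.9, 50.5 and 40.8 CPM against 76.5, 179, 73.5 and 56.9 CPM (1.27, SE 0.41). Double-mutant replicates 3 and 4, respectively, were barely above the FLT3 ITD libraries. Camsap2 (0.60), Rassf5 (0.72), Srgap2 (0.54), Rbbp5 (0.56), Mdm4 (0.48) and R3hdm1 (0.47) were the other higher genes, and Mapkapk2 (-0.29), Rab29 (-0.42) and Rabif (-0.21) the lower ones. Ipo9 had 0.36 (SE 0.30) and Kif21b 0.00 (SE 0.40) in Ptprc KO against WT.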

How the data were processed

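RNA from 16 libraries, 4 in each of 4 genotypes, was sequenced. Read counts per gene were used as the authors deposited them, with TPM, also deposited by the authors, as an alternative. The submitters' processing notes name bcl2fastq 2.20.0.422, UMI-tools 1.1.1, cutadapt 4.2, STAR 2.7.6a, featureCounts 2.0.3 and GRCm38.p6. Libraries were grouped by label. For the order of these tools, their settings and any use of strand, nothing is given in the sources used here.

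Counts were tested with edgeR 4.0.16 (R 4.3.3): filterByExpr, TMM, and the quasi-likelihood test over all 16 libraries with 12 residual degrees of freedom. The adjusted p (Benjamini-Hochberg over 12093 genes) had a threshold of 0.05. CPM were scaled with TMM, and a prior count of 2 was added for log2 CPM. Depth of 25011720 to 32355800 counts left genes under 1 CPM imprecise. The steps were tested on simulated data.

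Named genes were Ptprc, Flt3, the 15 of lowest p per direction without overlap and with at least 5 CPM in a group, the 10 per direction of largest change passing both leave-one-out fits described, and genes of the fixed lists. The members, 32 pathway lists and 12 marker lists were chosen with earlier results of these data known. Alternatives were DESeq2 1.42.0, limma 3.58.1 (voom, and log2(TPM + 1) with mean TPM of at least 1), sva 3.50.0, RLE factors, other filters, a replicate block, only 8 libraries, FLT3 ITD replicates 1 and 3 summed, and leaving out each library.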

Additional observations from a re-analysis of the deposited data

Results flagged for a closer look

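In 17 of 80 sets of 4 list scores (mean log2 CPM) and 13 of 96 sets of 4 gene values, 1 library lay apart from the other 3 by more than Dixon's critical value of 0.829 of the range. Chance gives about 5% of independent sets. These sets all reuse the same libraries, so 1 unusual library raises many of them. Some of the genes were also named for passing once FLT3 ITD replicate 4 or double-mutant replicate 3 was left out. The 5% is therefore no reference rate for these counts. Most of the list scores concerned FLT3 ITD replicate 4. It was low for bone resorption (9.442, where the others lay from 10.52 to 10.73), the TCA cycle (6.385, others 7.372 to 7.559), DNA replication (3.937, others 5.076 to 5.208) and mitosis (2.926, others 5.372 to 5.509). It was high for lysosomal hydrolases (8.211), STAT5 targets (4.702, others 3.394 to 3.452), ERK feedback genes (5.085, others 3.345 to 3.444), MHC class I presentation (7.121), cytokines (4.234, others 2.137 to 2.16), NADPH oxidase (8.935), iron handling (7.527), NRF2 targets (8.603) and adipocyte markers (7.177, others 4.71 to 4.893). Replicate 2 of FLT3 ITD was low for RANK signalling (6.694) and Src-family kinases (6.263). Double-mutant replicate 2 was high for MHC class II (5.317, others 3.087 to 3.361) and NADPH oxidase (9.115).

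Among named genes, given as log2 CPM, FLT3 ITD replicate 2 stood apart for Iqsec2 (3.583), Cenpj (2.324) and Hltf (4.539), all low, and for Snrnp35 (5.669), high. In FLT3 ITD replicate 4 Adgrb1 (0.6476), Rcan2 (-0.3666) and Mapk4 (0.4855) were low. Double-mutant replicate 2 was low for Spice1 (2.908), H2-Q6 (1.86) and H2-Q7 (3.112) and high for Bmt2 (6.419). Zswim7 was low in double-mutant replicate 1 (2.481), and Perp was high in double-mutant replicate 3 (1.061). Rbm44 differed between the Flt3 backgrounds in its response to CD45 loss (interaction log2 fold change 6.543, edgeR).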

How the results depend on the processing

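No direction of a tested result reversed, and 411 values of named genes stayed on their side of the threshold while 141 crossed to pass it. The lack of reversals and some of these crossings were largely fixed by selection. Named genes were chosen for low p without overlap, or for passing 2 fits, which leaves little room for a reversed direction. Medians of several lists, which were not tested, did change sign with a library left out. The 10 genes per direction named for passing without FLT3 ITD replicate 4 and without double-mutant replicate 3 pass in those fits by choice. Genes higher and lower numbered 370 and 614 with DESeq2 and 3868 and 3131 with limma voom, whose quality weights gave FLT3 ITD replicates 1 and 3 the most weight (8.467 and 9.737) and replicate 2 the least (0.1199). The count lower was 0 with only the 8 libraries (edgeR, 590 higher and 831 lower at an unadjusted p under 0.05), 2 with limma on log2(TPM + 1) and 3 with a surrogate variable. With only 8 libraries Ptprc was -2.66 (edgeR adjusted p = 0.164), and fewer residual degrees of freedom remain in that fit. With 1 library left out, genes higher ranged from 0 to 821 and lower from 1 to 977. Genes without overlap ranged from 647 to 1970 above and 457 to 1780 below (1005 and 691 without double-mutant replicate 2, 1102 and 1233 without double-mutant replicate 3, the highest without FLT3 ITD replicate 4), and were 1122 and 73 on TPM. The share near Ptprc ranged from 14.1 to 32.1%, the latter without FLT3 ITD replicate 4, where it was 31% for all genes.

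The interaction gave 56 higher and 109 lower genes with DESeq2, 3859 and 3424 with voom, and 0 higher with a mean count of at least 50, on TPM and with FLT3 ITD replicates 1 and 3 summed. With 1 library left out it gave 0 to 8 higher and 0 to 51 lower. List medians moved on TPM for RANK signalling (0.30), Src-family kinases (0.46), phosphatases (0.15), the BCL2 family (-0.037), MHC class I (0.56) and eosinophil markers (-0.54). The median over all genes was 0.22 on TPM and 0.03 in the main fit, so these values include a shift of all genes. With each library left out they ranged from -1.996 to -0.95 for fusion, 0.0902 to 1.22 for repressors, 0.0637 to 1.08 for STAT5 targets, 0.22 to 1.71 for interferon, 0.10 to 0.68 for MHC class I, -0.46 to 1.59 for cytokines, -0.39 to 0.47 for class III receptors, -0.41 to 1.69 for macrophage, -1.98 to -0.77 for eosinophil, -0.17 to 1.51 for stromal and -0.23 to 0.64 for endothelial genes. The causes were not tested.

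The sources used here do not say whether replicate numbers pair the libraries. Same-numbered deviations from the group means correlated at -0.127, -0.441, 0.521 and -0.0610. With so few libraries, several of them apart from their groups, these values cannot show whether same-numbered cultures belonged together. With a replicate block edgeR called 0 genes higher and 1 lower, Ptprc (-2.59, adjusted p = 0.00508), and the interaction 0.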

Other observations

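Metabolic lists outside the mitochondria had small medians with all libraries, and 4 of the 5 turned sign when some 1 library was left out (median over all genes 0.03). Glycolysis and hypoxia genes had a median log2 fold change of 0.09 (19 of 28 positive; -0.24 without double-mutant replicate 3), cholesterol and fatty acid synthesis -0.24 (9 of 30 positive, 1 lower at an unadjusted p under 0.05; -0.51 without double-mutant replicate 2 and -0.07 without double-mutant replicate 1), iron uptake and storage -0.04 (7 of 15; 0.38 without FLT3 ITD replicate 4), NRF2 antioxidant targets 0.07 (13 of 21; 0.83 without FLT3 ITD replicate 4 and -0.26 without double-mutant replicate 2) and the phagocyte NADPH oxidase 0.06 (4 of 6; -0.09 to 0.23 with each library left out). Few markers of the remaining cell types could be tested. Medians were 0.26 over 23 macrophage markers, 0.23 over 10 dendritic cell markers, -1.81 over 13 neutrophil markers, -1.53 over 4 eosinophil markers, 0.57 over 9 stromal markers, 0.20 over 6 endothelial markers, 0.49 over 3 adipocyte markers and -0.15 over 3 megakaryocyte markers. The 2 tested mast cell markers had -1.21, the 2 erythroid -0.48, the 2 B cell 0.84 and the 2 T and NK cell markers 0.20. Without FLT3 ITD replicate 4 the neutrophil median was -0.51, the adipocyte median 1.20 and the megakaryocyte median 0.99, and the dendritic cell median ranged from -0.35 to 0.36 with each library left out. Among the 6 endothelial markers 3 had positive and 3 negative log2 fold changes. Kdr, a receptor for VEGF (1.58, SE 0.65), and Cdh5, VE-cadherin (1.17, SE 0.35, under 1 CPM), were higher without overlap, while Eng (0.56), Vwf (-0.15), Pecam1 (-0.61) and Esam (-0.96) overlapped.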
